A study of Danio rerio with 3 samples.

Results

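The otp-high neurons of the zebrafish hindbrain at 44 hours post-fertilisation (hpf) were cells with at least 4 UMIs of *otpa* and *otpb* summed and at least 1 UMI of *elavl3* or *elavl4*. A UMI (unique molecular identifier) stands for 1 captured RNA molecule. This rule found 343 cells among the 3529 cells of the 44 hpf library, a share of 9.72% (95% interval 8.76 to 10.7%, exact Clopper-Pearson). Among the 2438 cells with a UMI of *elavl3* or *elavl4* the share was 14.1% (12.7 to 15.5%). Single cells were obtained from dissected hindbrains, with some surrounding tissue, of wild-type (wt) LondonAB embryos, and were sequenced as 3 droplet libraries with 9026 cells in all. Each stage (16, 24 and 44 hpf) was 1 library of about 40 pooled tissues. The embryos of the 16 and 44 hpf libraries were grown at 25 °C and those of the 24 hpf library at 28.5 °C. With 1 library for each stage no test between groups of cells was possible, and the intervals given here cover counting error only.

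The paralogues *otpa* and *otpb* encode Orthopedia homeodomain transcription factors, which are best known in zebrafish for the specification of dopaminergic and neuroendocrine neurons of the hypothalamus. In the spinal cord and hindbrain of vertebrates, interneurons arise in dorsoventral domains of progenitors that are marked by homeodomain factors such as Dbx1. Neurons of these domains are told apart by the factors that they switch on, with Evx in V0 neurons, many of them excitatory, and Engrailed and Foxd3 in inhibitory V1 neurons. *elavl3* and *elavl4* encode RNA-binding proteins that mark differentiating neurons.

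Since the cells were selected on *otpa*, *otpb*, *elavl3* and *elavl4*, the values of these genes are descriptions of the selection. The median otp-high neuron had 9 UMIs of *otpa* and 7 UMIs of *otpb*, with 16 UMIs of both summed (quartiles 10 and 29, highest 64). Both paralogues were detected in 279 cells, *otpa* alone in 35 and *otpb* alone in 29. Most of the selected cells thus had UMIs of both genes, and *otpa* had more UMIs than *otpb* in 188 cells, fewer in 141 and as many in 14. Just inside the threshold were 17 cells with 4 UMIs and 12 cells with 5 UMIs. Just outside it were 22 cells with 3 UMIs, 26 with 2 UMIs and 186 with 1 UMI among the cells with *elavl3* or *elavl4*, while 1861 had none. A further 7 cells had at least 4 otp UMIs without a UMI of either *elavl* gene and were left out. As summed UMIs scaled to a common total (CPM), *otpa* was at 3737 CPM in otp-high neurons, against 19.3 CPM in other neurons. For *otpb* the levels were 3146 CPM in otp-high neurons and 28.2 CPM in other neurons.

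**Figure D1:**
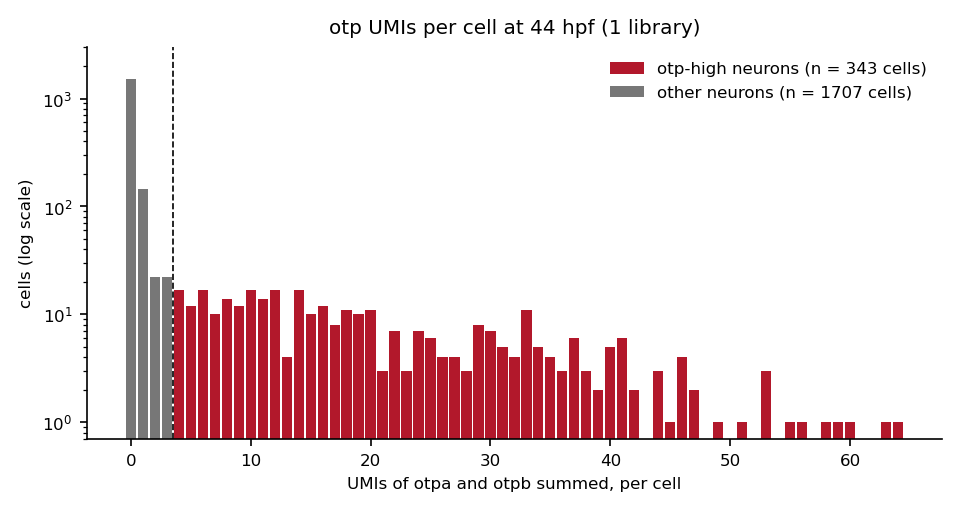
Number of cells at 44 hpf (log scale) by UMIs of *otpa* and *otpb* summed per cell, for the 343 otp-high neurons (red) and the 1707 other neurons (grey), with the threshold as a dashed line. The selected cells spread from 4 to 64 UMIs without a gap at the threshold, and 1517 of the other neurons had 0 UMIs.

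Otp-high neurons were compared with other neurons, defined as the remaining 1707 cells with at least 2 UMIs of *elavl3* and *elavl4*, of which 190 had 1 to 3 otp UMIs. They were also compared with 127 *pax2a* neurons, which had at least 2 UMIs of *pax2a*, at least 1 *elavl* UMI and no otp UMI, and 123 of these were among the other neurons. Both comparisons shared the otp-high neurons. The median depth was 2379 UMIs per cell in otp-high neurons (1353 to 21232), 2706 UMIs in *pax2a* neurons and 2614 UMIs in other neurons. As a measure of free RNA in the droplets, 396 cells with no *elavl* UMI and with UMIs of at least 3 head mesenchyme genes are given as background cells, with a median of 4698.5 UMIs. In these, *otpa* was at 10.4 CPM and *otpb* at 13.7 CPM, 46 cells had an otp UMI, and none had 4. No doublets were removed, and the libraries shared 8 to 18 cell barcodes in pairs.

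One otp-high neuron stood apart and decided many values, so results are given with and without it. This cell had 21232 UMIs, where the next highest had 13724, and held 13 otp, 21 *elavl* and 11 *pax2a* UMIs. It also held 706 UMIs of the keratin gene *krt4*, 325 of *lgals1l1* and 170 of the collagen gene *col1a2*, against 65, 5 and 13 UMIs in all other otp-high neurons together. Over 11 such genes of skin and connective tissue it had 2522 UMIs, and no other otp-high neuron had more than 6, so it is called the skin-rich cell. Each of these genes had most of its UMIs in this cell, so the low counts in the others follow in part from the choice of genes. Whether the droplet held more than 1 cell was not tested.

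Among 1926 genes with a mean of at least 50 CPM over both groups, 39 were at least 2-fold higher (2.02% of these genes) and 45 at least 2-fold lower (2.34%) in otp-high than in other neurons. Without the cell described above, 26 of 1919 genes were higher (1.35%) and 52 were lower (2.71%). No cell was left out of the other neurons, where single cells also held many UMIs of epithelial genes. The removal was thus 1-sided, and *cyt1l*, *krt91*, *krt4* and *cyt1* were named as lower only after it. Of the 15 genes named as most clearly higher, 10 had most of their UMIs in that 1 cell (*lgals1l1*, *s100a10b*, *col1a2*, *aep1*, *col1a1a*, *krt5*, *pfn1*, *cfl1l*, *postnb* and *tmsb1*), and the other 5 were *dbx1a*, *foxd3*, *eng1b*, *evx2* and *pax2a*. The last 5 were named with and without the cell. All 15 genes named as lower had no more than 50% of their UMIs in 1 otp-high neuron, and 11 of them were also named without that cell. Ratios in the following are those without the cell unless stated, a choice made after the data had been seen.

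The homeodomain and forkhead factors of intermediate and ventral interneurons showed the highest ratios over other neurons. *dbx1a*, which marks progenitors and newborn neurons of the V0 domain, was at 566 CPM in otp-high neurons and 20.2 CPM in other neurons, 28.0-fold higher (22.7 to 34.7). The *dbx1a* ratio was 58.3 when the other neurons were held to those with 0 otp UMIs (27.4 otherwise, both with the skin-rich cell). *foxd3* was at 210 CPM in otp-high neurons, against 35.7 CPM in other neurons (5.88-fold, 4.81 to 7.20). *eng1b*, an Engrailed gene of V1 neurons, was at 452 CPM in otp-high neurons and 87.1 CPM in other neurons (5.19-fold, 4.55 to 5.92). Each of these factors was carried by a minority of the selected cells, 89 cells for *dbx1a*, 47 for *foxd3* and 59 for *eng1b*. *evx2*, a marker of V0 neurons, was found in 76 of these cells and was at 129 CPM, against 23.0 CPM in other neurons (5.62-fold, 4.35 to 7.25). With the skin-rich cell, the *evx2* ratio was 5.63, and 9.27 after 2000 UMIs were drawn from each cell. *hmx3a*, a homeobox gene also known from the inner ear, was at 139 CPM in otp-high neurons and 34.2 CPM in other neurons (4.05-fold, 3.22 to 5.09). Of 7 genes of the list of V1 and V0 factors past the minimum level, 4 were at least 2-fold higher and none lower, with a median log2 ratio of 2.38 beside 0.06 for all genes compared (2.35 and 0.05 with the cell).

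Factors of inhibitory interneurons were split. *pax2a*, a paired-domain factor of GABAergic and glycinergic interneurons, was at 493 CPM in otp-high neurons, against 116 CPM in other neurons (4.26-fold, 3.78 to 4.81). The LIM-homeodomain genes *lhx1a* and *lhx5*, which act in inhibitory interneurons of the spinal cord, were 3.76-fold (3.31 to 4.27) and 3.12-fold (2.66 to 3.65) higher. In contrast, *tfap2a* was at 14.3 CPM in otp-high neurons and 166 CPM in other neurons, a ratio of 0.0862 (0.0469 to 0.145). *tfap2b* had a ratio of 0.161 (0.0965 to 0.254) and the ladybird homeobox gene *lbx2* a ratio of 0.116 (0.0612 to 0.199). These 3 higher and 3 lower genes were among 9 of the list of inhibitory neuron factors past the minimum level, whose median log2 ratio was 0.27. High *pax2a*, *lhx1a* and *lhx5* thus went with low *tfap2a*, *tfap2b* and *lbx2* in the summed otp-high neurons.

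To compare shares of cells, 2000 UMIs were drawn from each cell and the 68 otp-high, 17 *pax2a*, 391 other neurons and 20 background cells with fewer were left out. *dbx1a* was then detected in 24.7% of 275 otp-high neurons (19.7 to 30.3%), 0.909% of *pax2a* neurons, 1.60% of other neurons (0.990 to 2.43%) and 0.798% of background cells. *evx2* was detected in 21.8% of otp-high neurons (17.1 to 27.2%) and 3.04% of other neurons, and in 0 of 376 background cells (which allows a share of up to 0.798%, the floor of 3 cells). For *eng1b* the shares were 18.9% of otp-high neurons (14.5 to 24.0%), 4.86% of other neurons and 0.266% of background cells. The otp-high shares of these 3 factors lay above those of both the other neurons and the background cells. The factors had been named for high ratios over other neurons in the same cells, so their higher shares are a description and no separate support. Without drawing UMIs the shares in otp-high neurons were 25.9% for *dbx1a*, 22.4% for *evx2* and 17.2% for *eng1b*. *pax2a* was detected in 48.0% of otp-high neurons after drawing (42.0 to 54.1%) and in 53.6% without drawing. *lhx1a* was detected in 49.1% of otp-high neurons and 48.2% of *pax2a* neurons, against 16.1% of other neurons, with 0.266% in background cells.

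**Figure D2:**
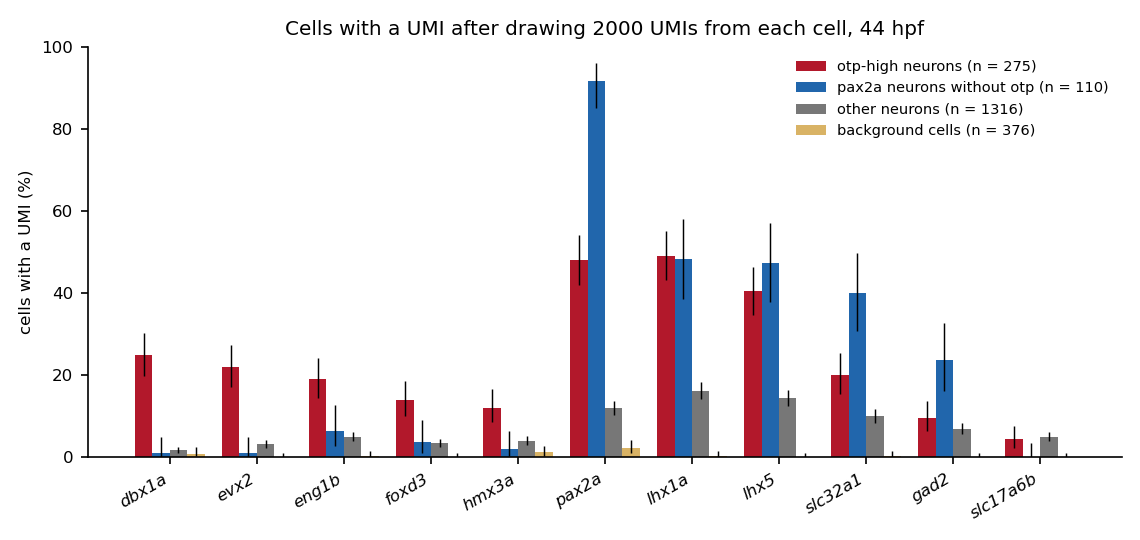
Share of cells (%) with a UMI of each gene after 2000 UMIs were drawn from each cell, in 275 otp-high neurons, 110 *pax2a* neurons without otp, 1316 other neurons and 376 background cells, with exact 95% Clopper-Pearson intervals as lines. *dbx1a*, *evx2*, *eng1b*, *foxd3* and *hmx3a* were most frequent in otp-high neurons, while *slc32a1* and *gad2* were most frequent in *pax2a* neurons, and *pax2a* itself selected that group.

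Genes of newborn neurons were split, and a few genes of progenitors and division were lower. *neurog1*, a proneural bHLH gene, was at 228 CPM in otp-high neurons and 87.1 CPM in other neurons (2.62-fold, 2.22 to 3.08). *nhlh2*, a bHLH gene of newly formed neurons, was at 1220 CPM, against 561 CPM in other neurons (2.18-fold, 2.03 to 2.33). *neurod1* and *scrt1b* of the same list were lower, with ratios of 0.329 for *neurod1* (0.263 to 0.407, with the cell) and 0.153 for *scrt1b* (0.0887 to 0.248). Of 20 genes of newborn neurons past the minimum, 2 were higher and 2 lower, beside 1.35% and 2.71% of the 1919 genes compared. Among 13 genes of progenitors and glia, 3 were lower (*her6*, *her15.1* and *fabp7a*) and none higher, with a median log2 ratio of -0.61. Both genes of cell division past the minimum, *pcna* and *nusap1*, were lower, as was *rrm2.1*, a subunit of ribonucleotide reductase that supplies DNA synthesis, at 44.8 CPM in otp-high neurons and 302 CPM in other neurons. The list of neuronal maturation and synapse genes had a median log2 ratio of 0.05, and of its 23 genes only *snap25b* and *calm1b* were beyond 2-fold, both lower. By the sum of this list, otp-high neurons were at 8303 CPM and other neurons at 8251 CPM.

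The remaining named genes that were higher included regulators of adhesion and signalling. *chn1*, which encodes a chimaerin that inactivates Rac, was at 152 CPM in otp-high neurons and 45.0 CPM in other neurons (3.38-fold, 2.73 to 4.16). *cxxc4*, whose product inhibits Wnt signalling, was 3.24-fold higher (2.65 to 3.95), and *flrt3*, an adhesion molecule with leucine-rich repeats, 2.84-fold higher (2.41 to 3.35). *mab21l1* was at 588 CPM in otp-high neurons, against 226 CPM in other neurons (2.60-fold, 2.35 to 2.88), and *zgc:162707* was 3.77-fold higher (3.06 to 4.63). In the list of axon guidance and adhesion genes, *cdh8* was higher and *cdh6* lower among 17 genes, with a median log2 ratio of 0.20.

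Factors of other classes of hindbrain neuron were low in otp-high neurons. *barhl2*, a marker of dorsal dA1 neurons, was at 23.4 CPM in otp-high neurons and 252 CPM in other neurons (ratio 0.0931, 0.0588 to 0.140), with *barhl1a* at a ratio of 0.113 and the proneural gene *atoh1a* at 0.144. *phox2bb*, a homeobox gene of noradrenergic and visceral motor neurons, was at 56.0 CPM in otp-high neurons, against 296 CPM in other neurons (ratio 0.190, 0.142 to 0.248). Both V2 factors past the minimum, *tal1* and *gata2a*, were lower, as were *phox2a* and *isl2b*, a factor of motor and sensory neurons. Thus 3 of 4 genes of the dA1 list, 2 of 2 of the V2 list, both *phox2* genes and 1 of 1 motor neuron factor were at least 2-fold lower. Of all 1919 genes compared, 2.71% were, and each of these lists had few genes past the minimum. No *tlx*, *lmx1b* or *dmbx1* gene was past the minimum level. The other neurons were a pool of classes, so each ratio also depends on how many cells of these classes the pool held. Of 4 neural crest and ganglia genes past the minimum, *tfap2a*, *neurod1* and *isl2b* were lower and *foxd3* higher. With the skin-rich cell, this list summed to 389 CPM in otp-high neurons and 821 CPM in other neurons. The paper found ganglion cells in the dissected tissue, and how many of them the pool held was not tested.

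Keratins and related epithelial genes made up the rest of the genes named as lower, and here single cells among the other neurons weighed. *cyt1l*, *krt91*, *icn2*, *cyt1* and *krt4* had 69.5%, 62.8%, 74.1%, 60.5% and 51.6% of their UMIs among other neurons in 1 cell each, and *icn* had 42.0%. *krt4* was at 66.2 CPM in otp-high neurons without the skin-rich cell and 350 CPM in other neurons, but at 769 CPM in otp-high neurons with it, so its direction rested on which cells were counted. Epidermis genes summed to 331 CPM in otp-high neurons without that cell, 1758 CPM with it and 1236 CPM in other neurons. Of the head mesenchyme genes the sums were 179 CPM without that cell and 491 CPM with it, against 208 CPM in other neurons. With that cell, blood genes summed to 174 CPM in otp-high and 158 CPM in other neurons, and vessel genes to 7.98 and 4.64 CPM. In the same order, otic and neuromast genes summed to 22.9 and 158 CPM. This list includes *atoh1a*, named above as lower, at 14.0 CPM in otp-high and 99.4 CPM in other neurons. The part of RNA from other cell types in the remaining ratios was not tested.

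**Figure D3:**
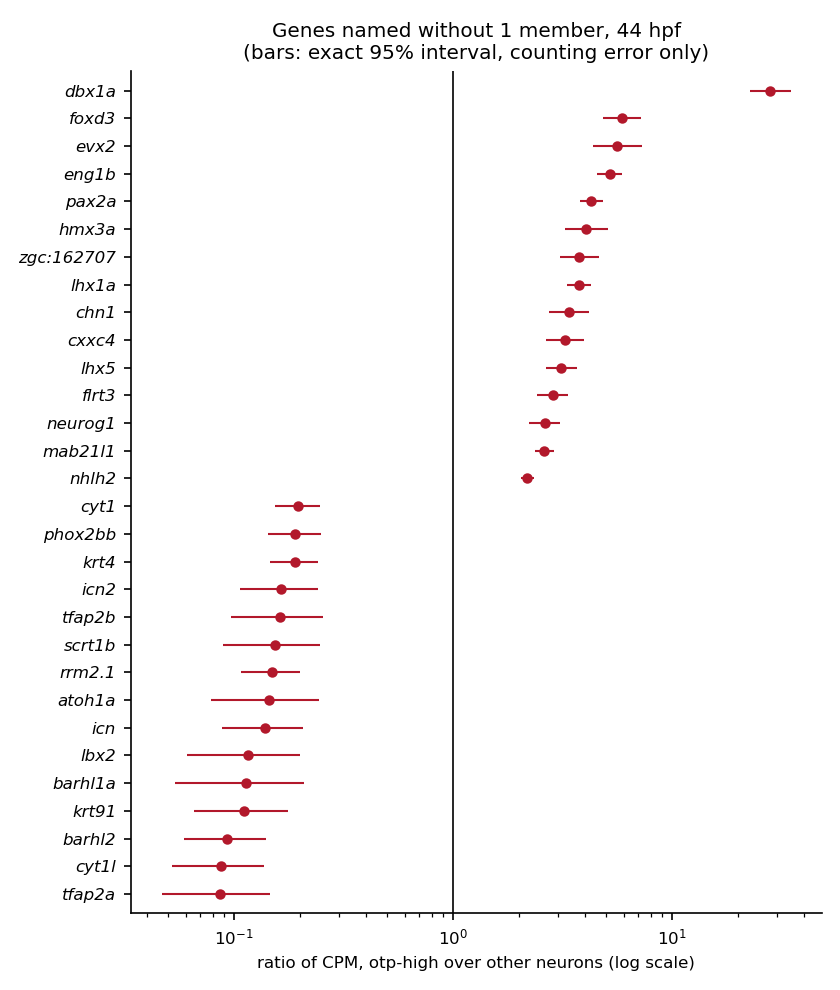
Ratio of CPM in otp-high neurons over other neurons at 44 hpf (log scale) for the 15 genes named in each direction without 1 skin-rich cell, with exact 95% intervals. *dbx1a* stood at 28.0 and the other higher genes between 2.18 and 5.88, while the lower genes lay between 0.0862 and 0.196.

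Transmitter genes had few UMIs, and only *slc32a1* was at least 2-fold apart from other neurons among the GABA genes. *slc32a1*, the vesicular transporter of GABA and glycine, was at 145 CPM in otp-high neurons and 67.6 CPM in other neurons (2.14-fold, 1.75 to 2.60, with the cell), and was detected in 20.0% of otp-high (15.4 to 25.2%), 9.88% of other neurons and 0.266% of background cells after drawing. Without drawing it was detected in 24.2% of otp-high neurons. *gad1b* and *gad2*, which encode enzymes of GABA synthesis, were at 44.9 CPM and 56.8 CPM in otp-high neurons, against 34.7 CPM and 46.3 CPM in other neurons, with intervals of the ratios that included 1 (0.911 to 1.80 for *gad1b* and 0.905 to 1.64 for *gad2*). *slc17a6b*, a vesicular glutamate transporter, had 22 UMIs in otp-high neurons (21.9 CPM, against 28.6 CPM in other neurons), and *slc17a6a* had none, which allows up to 2.99 CPM (a floor of 3 UMIs over the group). *slc6a5*, the glycine transporter of glycinergic neurons, had 4 UMIs.

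Many genes linked to *otp* in the hypothalamus had no UMI in otp-high neurons. Of 15 monoamine genes, 11 had no UMI in otp-high neurons, including *th*, the rate-limiting enzyme of dopamine synthesis, and *ddc* had 1 UMI. *sim1a*, *rx3*, *nkx2.1* and *bsx*, regulators of hypothalamic neurons, also had no UMI. Of the 36 neuropeptide genes in the table, 26 had no UMI, and of the factors that act with *otp* in the hypothalamus 11 of 21 had none. No like count is given for other neurons or for all genes, so these counts do not set otp-high neurons apart. With the cell, monoamine genes summed to 12.0 CPM in otp-high neurons and 41.2 CPM in other neurons. In the same order, neuropeptide genes summed to 309 and 590 CPM and the factors that act with *otp* to 1380 and 1278 CPM. For each of the genes without a UMI, the count allows a level of up to 2.99 CPM over the group (the floor of 3 UMIs). *arnt2*, whose product pairs with Sim1 in the hypothalamus, was at 138 CPM in otp-high neurons and 117 CPM in other neurons (1.18-fold, 0.974 to 1.42). The same list had no gene beyond 2-fold in either direction among 5 past the minimum.

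Among genes of axial position the Hox list showed no gene beyond 2-fold. *hoxb3a* was at 312 CPM in otp-high neurons, against 276 CPM in other neurons, and *hoxd4a* at 136 CPM in otp-high and 117 CPM in other neurons. The 5 Hox genes past the minimum level had a median log2 ratio of 0.21. Of 5 anterior and segment factors past the minimum, 1 was at least 2-fold higher, *eng1b*, and the median log2 ratio was 0.89. *egr2b*, a marker of rhombomeres 3 and 5, had no UMI in otp-high neurons and 19 UMIs in other neurons (3.53 CPM). The count of 0 allows up to 2.99 CPM (the floor of 3 UMIs), so *egr2b* hardly tells the groups apart. 13 of 32 Hox genes had no UMI in otp-high neurons, and no like count is given for other neurons. The Hox list summed to 891 CPM in otp-high neurons and 882 CPM in other neurons, with the cell.

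The *pax2a* neurons without otp were examined as the nearest class that shared *pax2a*, which was left out of this comparison. The groups were unlike in this gene, since 159 of the 343 otp-high neurons had no *pax2a* UMI. With only the otp-high neurons that had a *pax2a* UMI, 48 of 1977 genes were at least 2-fold higher and 65 lower, with the skin-rich cell. The *pax8* ratio was then 0.217, against 0.148 with all otp-high neurons. Of 1971 genes, 48 were at least 2-fold higher (2.44%) and 60 lower (3.04%) in otp-high than in *pax2a* neurons, and without the skin-rich cell 36 of 1954 were higher (1.84%) and 62 lower (3.17%). *dbx1a* had 556 UMIs in otp-high neurons and 1 UMI in *pax2a* neurons, a ratio of 246 whose interval reached from 43.9 to 9725. With *pax2a* neurons set to the floor of 3 UMIs the *dbx1a* ratio was 80.2. It was 27.7 when the *pax2a* neurons were asked for at least 1 *pax2a* UMI, both with the skin-rich cell. *evx2* had 127 UMIs in otp-high neurons and 1 UMI in *pax2a* neurons (ratio 56.1, 9.90 to 2235). *hmx3a* was 10.0-fold higher (4.49 to 27.8), *foxd3* 5.36-fold (3.26 to 9.37) and *cxxc4* 5.12-fold (2.96 to 9.57). Of 7 V1 and V0 factors past the minimum level, 5 were higher (*eng1b*, *foxd3*, *foxp1b*, *evx2* and *dbx1a*) and 1 was lower, *mafba*, with a median log2 ratio of 1.75. *mafba* was at 68.8 CPM in otp-high neurons and 168 CPM in *pax2a* neurons (ratio 0.409, 0.290 to 0.576, with the cell), and *eng1b* at 443 CPM in otp-high and 198 CPM in *pax2a* neurons (2.23-fold, 1.77 to 2.85, with the cell). *adcyap1b*, which encodes the neuropeptide PACAP, was 5.06-fold higher than in *pax2a* neurons (2.56 to 11.4) but lower than in other neurons, with a ratio of 0.441 (0.359 to 0.538, with the cell). *flrt3*, *neurog1*, *dmtn* and *cdh8* were 3.33-, 3.09-, 3.45- and 3.33-fold higher.

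Factors of dorsal inhibitory neurons were much lower in otp-high neurons than in *pax2a* neurons. *tfap2a* was at 14.3 CPM in otp-high neurons and 523 CPM in *pax2a* neurons (ratio 0.0273, 0.0147 to 0.0467), *lbx2* at 13.2 CPM and 355 CPM (ratio 0.0373), and *tfap2b* at 19.4 CPM and 364 CPM (ratio 0.0532). *lbx1a*, the ladybird factor of dorsal inhibitory neurons, had a ratio of 0.0765 (0.0331 to 0.157) and *pax8* of 0.140 (0.0987 to 0.194). Of 13 inhibitory neuron factors past the minimum level 9 were lower and none higher, with a median log2 ratio of -1.99 beside -0.02 for all genes (with the cell). *lhx1a* (1.01-fold, 0.849 to 1.22) and *lhx5* (0.848-fold, 0.682 to 1.06) were at like levels in both groups, with intervals that included 1. *nkx6.1* and *irx4a* were also lower, with ratios of 0.0564 and 0.0713, and *si:dkey-175g6.2* had a ratio of 0.132. The GABA genes *gad1b*, *gad2* and *slc6a1b* were lower, with ratios of 0.487, 0.363 and 0.337, and *slc32a1* was at 0.510 (0.398 to 0.654), all with the cell. These ratios cover otp-high neurons with and without *pax2a*. Without the cell, *slc32a1* was at 196 CPM in those with a *pax2a* UMI and 87.0 CPM in those without (2.26-fold, 1.55 to 3.36). Between the same sets *gad2* was also at least 2-fold higher, while *gad1b* had a ratio of 0.609 (0.317 to 1.15). The named genes *sst1.1* and *cldnb* rested on few *pax2a* neurons, with all 142 UMIs of *sst1.1* in 1 cell and 74.6% of the UMIs of *cldnb* in 1 cell.

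Among the otp-high neurons themselves, *eng1b* or *foxd3* were rarely found in 1 cell with *evx* or *dbx1* genes. The sets were chosen after the values had been seen and are given as descriptions, and counts of cells include the skin-rich cell while CPM and ratios leave it out. A UMI of *eng1b* or *foxd3* was found in 63 cells, of *evx1* or *evx2* in 80, of *dbx1a* or *dbx1b* in 89 and of *hmx3a* in 49, and 107 cells had none of them. The median depth of these sets was similar, at 2415, 2511, 2319, 2304 and 2361 UMIs in that order. Of the 63 cells with *eng1b* or *foxd3*, 3 had *evx1* or *evx2* (4.76%), against 77 of the 280 without (27.5%). In the same 63 cells, 2 had *dbx1a* or *dbx1b* (3.17%), against 87 of the other 280 cells (31.1%). *eng1b* and *foxd3* themselves shared 43 cells. Of the 80 cells with *evx1* or *evx2*, 23 had *dbx1a* or *dbx1b* (28.7%), against 66 of 263 without (25.1%), and 2 had *hmx3a* (2.50%), against 47 of 263 (17.9%). The cells with *eng1b* or *foxd3* and those with *hmx3a* overlapped, with *hmx3a* in 14 of the 63 (22.2%), against 35 of the other 280 (12.5%). *pax2a* was found across the sets, in 51 of the 63 cells with *eng1b* or *foxd3* (81.0%), against 133 of the 280 without (47.5%).

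Some transmitter genes differed between these sets. Against the rest of the otp-high neurons, 1 of 3 GABA genes was at least 2-fold higher in cells with *eng1b* or *foxd3* (*slc6a1b*). In cells with *hmx3a* it was 1 of 4 (*gad1b*), so *slc32a1* was under 2-fold higher in both sets. In cells with *evx1* or *evx2* and in those with *dbx1a* or *dbx1b*, *slc32a1* was at least 2-fold lower. *slc32a1* was at 237 CPM in cells with *eng1b* or *foxd3* (172 to 319) and 252 CPM in cells with *hmx3a* (177 to 347), but at 26.1 CPM in cells with *evx1* or *evx2* (9.56 to 56.7) and 56.2 CPM in cells with *dbx1a* or *dbx1b* (32.1 to 91.3). *slc17a6b* had 15 UMIs in the cells with *evx1* or *evx2* and 5 in all others (ratio 9.79, 3.38 to 34.4), and none in the cells with *eng1b* or *foxd3* or with *hmx3a*. A UMI of *slc32a1*, *gad1b* or *gad2* was found in 34 of 63 cells with *eng1b* or *foxd3* and in 30 of 49 cells with *hmx3a*, in 6 of 80 cells with *evx1* or *evx2* and in 11 of 89 cells with *dbx1a* or *dbx1b*. Genes of the vesicular GABA and glutamate transporters were not found in the same cell, with 83 cells for *slc32a1* and 16 for *slc17a6b*. Counts of *slc17a6b* were low throughout, so its absence from a cell says little.

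**Figure D4:**
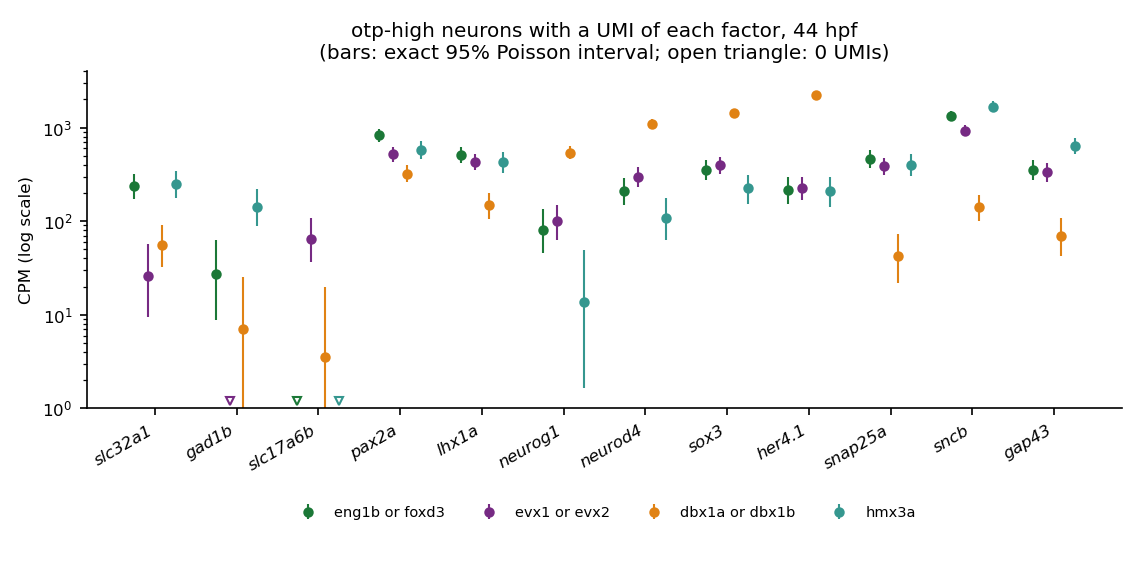
CPM (log scale) with exact 95% Poisson intervals in otp-high neurons with a UMI of *eng1b* or *foxd3* (green), *evx1* or *evx2* (purple, without 1 skin-rich cell), *dbx1a* or *dbx1b* (orange) and *hmx3a* (teal), where cells may belong to several sets and open triangles mark 0 UMIs. Cells with *dbx1a* or *dbx1b* were high in *neurog1*, *neurod4*, *sox3* and *her4.1* and low in *snap25a*, *sncb* and *gap43*, and *slc32a1* was lower in cells with *evx1* or *evx2* and with *dbx1a* or *dbx1b* than in the other 2 sets.

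In the cells with *eng1b* or *foxd3*, 50 of 1930 genes were at least 2-fold higher and 69 lower than in the rest of the otp-high neurons. The counts were 37 and 60 of 1934 for *evx1* or *evx2*, and 103 and 84 of 1953 for *hmx3a*. Genes that defined a set were not left out of these counts, so *eng1b*, *foxd3* and *evx2* were higher by the selection. Only some of the higher genes are named here. Of the 49 cells with *hmx3a*, 3 had *dbx1a* or *dbx1b*, so most cells with a *dbx1* gene were in the rest. In the cells with *eng1b* or *foxd3*, *mafba* was at 194 CPM, against 40.2 CPM in the rest (4.83-fold, 2.92 to 8.04), *gbx1* was 4.03-fold higher and *bhlhe22* 3.90-fold higher. The homeobox gene *gbx1* and the bHLH gene *bhlhe22* are both known from interneurons of the spinal cord, and *mafba* from the segmentation of the hindbrain. In the cells with *evx1* or *evx2*, *adcyap1b* was at 321 CPM, against 38.6 CPM in the rest (8.32-fold, 5.35 to 13.3), *nrn1a* was 5.01-fold higher (3.54 to 7.14) and the adhesion gene *alcama* 3.89-fold higher (2.78 to 5.45). *robo3*, a receptor of commissural axons, was at 369 CPM in these cells, against 190 CPM in the rest (1.94-fold, 1.46 to 2.55), which is under 2-fold. Of 17 axon guidance and adhesion genes past the minimum in this comparison, 2 were at least 2-fold higher (*plxna4* and *alcama*) and 2 lower (*cdh8* and *fstl1a*). In the cells with *hmx3a*, *hmx2* was at 422 CPM, against 13.2 CPM in the rest (32.0-fold, 16.7 to 67.4), *gad1b* was 5.18-fold higher (2.73 to 9.79), *stmn2a* 3.14-fold and *gap43* 2.19-fold higher, the last a gene of growing axons. *hoxd4a* was at 299 CPM in the cells with *hmx3a* and 109 CPM in the rest (2.74-fold, 1.87 to 3.98). The 2 head mesenchyme genes past the minimum, *col2a1a* and *ednraa*, were also higher in the cells with *hmx3a* (median log2 ratio 3.32). *col2a1a* was higher in the cells with *dbx1a* or *dbx1b* as well (log2 ratio 3.15). How many cells held these UMIs was not examined.

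The cells with *dbx1a* or *dbx1b* differed from the rest of the otp-high neurons in 149 higher (8%) and 260 lower genes (14%) of 1862. The higher genes included *dbx1a* and *dbx1b*, which defined the set. Of 19 genes of newborn neurons past the minimum, 11 were at least 2-fold higher and none lower (median log2 ratio 1.27), and of 13 genes of progenitors and glia 11 were higher and 1, *slc1a2b*, lower (median 2.17). Of 21 genes of neuronal maturation and synapse 18 were lower and none higher, with a median log2 ratio of -2.59 beside -0.07 for all genes. The proneural gene *neurod4* was at 1096 CPM in them, against 179 CPM in the rest of the otp-high neurons (6.11-fold, 4.95 to 7.58), and *neurog1* was 5.39-fold higher (4.04 to 7.25). The Notch ligand gene *dld* was 9.56-fold (6.75 to 13.8) and *dla* 6.32-fold higher (5.46 to 7.34), with the Notch target *her4.1* at 2245 CPM, against 396 CPM in the rest. *sox3*, a gene of neural progenitors, was at 1444 CPM in these cells and 318 CPM in the rest (4.53-fold, 3.84 to 5.36). Of the maturation list, the synaptic gene *snap25a* had a ratio of 0.0837 (0.0429 to 0.148), *sncb* of 0.106 (0.0755 to 0.146) and *gap43* of 0.154 (0.0928 to 0.242). A UMI of *neurod4* was found in 58 of the 89 cells with *dbx1a* or *dbx1b*, against 23 of the 254 without.

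Cells with few and with many otp UMIs differed in some of the same genes, and since the rule used otp UMIs this is a description. *her4.1* was at 2334 CPM in the 29 cells with 4 or 5 otp UMIs (2037 to 2663) and 421 CPM in the 141 cells with 20 or more (359 to 489). *nhlh2* was at 549 CPM in the cells with 4 or 5 otp UMIs and 1615 CPM in those with 20 or more. *snap25a* did not follow the same order as *nhlh2*, with 613 CPM in cells with 4 or 5 otp UMIs and 270 CPM in those with 20 or more. In the 190 other neurons with 1 to 3 otp UMIs, *eng1b* was at 199.8 CPM, *evx2* at 29.0 CPM and *pax2a* at 143 CPM.

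The same rule was applied to the earlier libraries, where stage and library cannot be told apart. For the 24 hpf library, growth temperature (28.5 °C, against 25 °C at 16 and 44 hpf) cannot be told apart from them either. The rule was met by 31 cells at 16 hpf (4.18% of cells with an *elavl* UMI, 2.86 to 5.88%), 139 cells at 24 hpf (10.0%, 8.47 to 11.7%) and 343 cells at 44 hpf (14.1%). After 2000 UMIs were drawn and at least 2 otp UMIs were asked for, the 16 hpf library had a share of 3.58%, the 24 hpf library 13.4% and the 44 hpf library 16.5%. Both ways of counting gave the lowest share at 16 hpf. The median depth of the cells that met the rule was 12308, 6679 and 2379 UMIs at the successive stages. A further 29 cells at 16 hpf and 12 at 24 hpf had at least 4 otp UMIs and no *elavl* UMI. In the cells that met the rule, *otpa* was at 89.5, 1104 and 3737 CPM and *otpb* at 676, 1814 and 3146 CPM from 16 to 44 hpf.

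At 24 hpf the cells that met the rule were set against 788 other neurons of that library. *dbx1a* was at 880 CPM in them and 33.5 CPM in other neurons (26.2-fold, 22.9 to 30.2). *eng1b* was at 299.8 CPM, against 2.28 CPM in other neurons (132-fold, 82.0 to 225), and *pax2a* at 200.5 CPM, against 37.8 CPM (5.30-fold, 4.43 to 6.33). Of the 15 genes named as higher at 44 hpf without the skin-rich cell, 8 were past the minimum level at 24 hpf and 7 of those were at least 2-fold higher there, where 3.81% of 2023 genes were (*dbx1a*, *eng1b*, *pax2a*, *lhx1a*, *mab21l1*, *neurog1* and *nhlh2*). Of the 15 lower genes, 9 were past the minimum and 3 at least 2-fold lower (*rrm2.1*, *atoh1a* and *phox2bb*), against 2.97% of all genes. The epithelial genes *cyt1l*, *krt91*, *icn*, *icn2* and *cyt1* were not lower at 24 hpf, and in each of them 1 cell held most of the UMIs of the cells that met the rule. At 16 hpf *dbx1a* was at 398 CPM in the cells that met the rule and 20.5 CPM in other neurons (19.4-fold, 14.4 to 26.4). *eng1b* had no UMI in these 31 cells and 12 UMIs in the 286 other neurons, too few to tell the groups apart.

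With 2000 UMIs drawn from each cell, *dbx1a* or *dbx1b* was detected in 53.2% of the cells that met the rule at 24 hpf (44.6 to 61.7%) and 24.7% at 44 hpf (19.7 to 30.3%). *evx1* or *evx2* was detected in 7.19% at 24 hpf (3.50 to 12.8%) and 22.9% at 44 hpf (18.1 to 28.3%), and *hmx3a* in 0.719% at 24 hpf and 12.0% at 44 hpf. For *eng1b* or *foxd3* the shares were 18.7% at 24 hpf (12.6 to 26.2%) and 20.0% at 44 hpf (15.4 to 25.2%). These shares describe 1 library of each stage. Without drawing, 82 of 139 cells at 24 hpf had *dbx1a* or *dbx1b*, 34 had *eng1b* or *foxd3* and 7 had both.

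**Figure D5:**
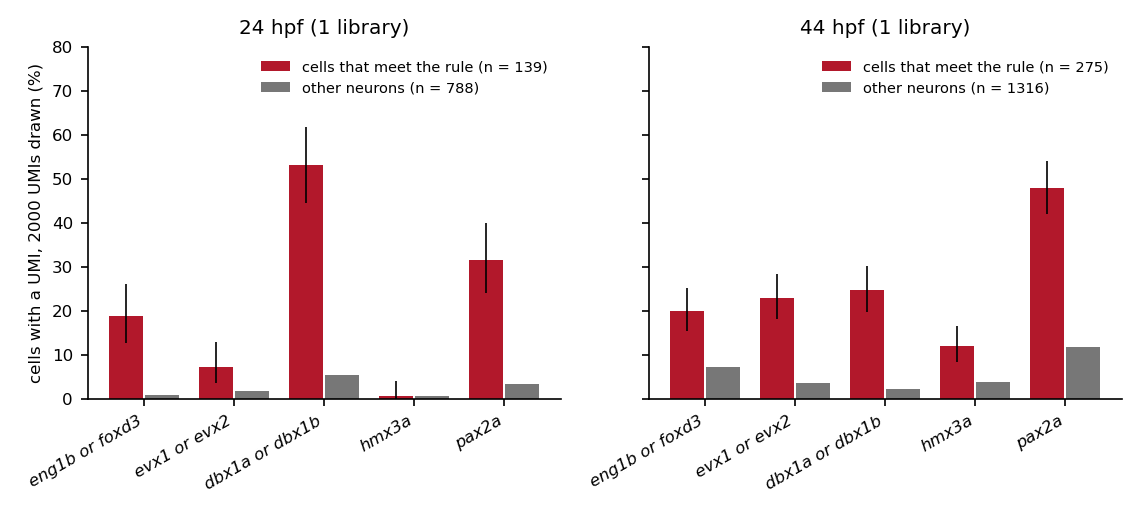
Share of cells (%) with a UMI of each factor after 2000 UMIs were drawn from each cell, at 24 hpf (left; 139 cells that met the rule and 788 other neurons) and 44 hpf (right; 275 and 1316 cells), with exact 95% Clopper-Pearson intervals for the cells that met the rule. *dbx1a* or *dbx1b* stood at 53.2% at 24 hpf and 24.7% at 44 hpf, and *hmx3a* at 0.719% and 12.0%.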

How the data were processed

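The authors deposited UMI counts of 27282 genes for every cell of 3 libraries (10x 3′ chemistry). The submitters' processing notes name Cell Ranger and GRCz10, and the version of Cell Ranger is not given in the sources used here. The tables hold whole numbers without normalisation, and no cell was removed. The cells chosen and all gene lists were set with earlier results of these data known.

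UMIs were summed over the cells of a group and scaled to CPM, with exact Poisson intervals, exact conditional binomial intervals for ratios and Clopper-Pearson intervals for shares, all at 95%. A group with fewer than 3 UMIs was set to 3 for calls. *otpa*, *otpb*, *elavl3* and *elavl4* (and *pax2a* against *pax2a* neurons) were left out. Among sets of otp-high neurons, genes that defined a set, such as *eng1b* and *dbx1a*, were kept in the counts. Genes named, without mitochondrial, ribosomal and haemoglobin genes, were the 15 (other neurons) or 10 (*pax2a* neurons) in each direction whose interval bound nearest to 1 was farthest from 1, and members of the lists that a sentence needed. Ratios were tested on simulated group sums drawn as Poisson counts. These had no variation between cells, so the test does not cover genes with most UMIs in 1 cell. Python 3.11.15, numpy 2.4.6, scipy 1.17.1 and pandas 2.3.3 were used. Other thresholds, minimum levels, folds, drawn UMIs, the mean of the CPM of single cells and removal of cells beyond 3 median absolute deviations (MAD) were tried.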

Additional observations from a re-analysis of the deposited data

Results flagged for a closer look

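The ictacalcin genes *icn* and *icn2*, expressed in epithelia, lay in opposite directions in the 24 hpf and 44 hpf libraries. At 24 hpf *icn* was 4.07-fold and *icn2* 3.61-fold higher in the cells that met the rule than in other neurons. At 44 hpf the ratios were 0.135 for *icn* and 0.165 for *icn2*. A single cell held 91.8% of the *icn* UMIs and 93.2% of the *icn2* UMIs of the 139 cells at 24 hpf. At 44 hpf the highest cell among the other neurons held 42.0% of their *icn* UMIs and 74.1% of their *icn2* UMIs. The difference between the libraries was not tested.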

How the results depend on the processing

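With 1 library and few UMIs per cell, genes under 50 CPM and classes of a few cells are poorly measured. Asking for at least 2 otp UMIs gave a share of 11.1%. The counts of genes that were higher and lower than in other neurons were 70 and 148 at a minimum of 20 CPM, 22 and 23 at 100 CPM, 2647 and 709 with no minimum, 101 and 106 at 1.5-fold and 21 and 22 at 3-fold. Against *pax2a* neurons they were 19 and 29 at a minimum of 100 CPM. The counts under the other settings tried stayed within 1.5 times. Other named ratios that moved by over 1.5 times without a turn, all with the skin-rich cell, included *dbx1a* (58.3 against other neurons with 0 otp UMIs). Against neurons with at least 1 *pax2a* UMI it was at 27.7. With the mean of the CPM of single cells, *barhl2* was at 0.0473 and *tfap2a* at 0.0337 against other neurons. Without cells beyond 3 MAD, *tfap2b* was at 0.0374, and *icn* (0.590) and *icn2* (0.585) were under 2-fold lower. Genes of the skin-rich cell turned direction. Among other neurons, where no cell was left out, 1 cell held from 30.1% (*postnb*) to 61.1% (*pfn1*) of the UMIs of each of these genes. *s100a10b* had 0 UMIs in otp-high neurons without the skin-rich cell, so its value there is a bound at the floor of 3 UMIs. Against other neurons, without that cell (added after seeing the data) the ratios were 0.381 for *lgals1l1*, 0.126 for *s100a10b*, 0.448 for *col1a2*, 0.163 for *aep1*, 0.327 for *col1a1a*, 0.260 for *krt5*, 0.250 for *pfn1*, 0.334 for *cfl1l*, 0.426 for *postnb* and 0.119 for *tmsb1*. Without cells beyond 3 MAD they were 0.572 for *s100a10b*, 0.870 for *col1a2*, 0.697 for *aep1*, 0.458 for *col1a1a*, 0.779 for *pfn1*, 0.916 for *cfl1l*, 0.364 for *postnb* and 0.373 for *tmsb1*, and *postnb* was at 0.912 with 2000 UMIs drawn. With at least 2 otp UMIs *icn* was at 1.59 and *icn2* at 2.77, of which the cause was not tested. Against other neurons with 0 otp UMIs they were at 0.213 and 0.615. Against *pax2a* neurons, the ratios without that cell were 0.737 for *lgals1l1*, 0.683 for *pfn1*, 0.898 for *krt4* and 0.884 for *krt5*. Without cells beyond 3 MAD they were 0.647 for *lgals1l1*, 0.905 for *col1a2*, 0.790 for *krt4*, 0.905 for *krt5* and 1.03 for *cldnb*, while *s100a10b* and *aep1* had at most 3 UMIs in either group under both settings and no ratio is given. No paired analysis was possible because each stage is 1 library.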
